A study of Homo sapiens with 12 samples.

Results

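The human genes for translation initiation and elongation factors were followed through K562 and imatinib-resistant K562 (K562/IM) cells with and without lycorine. They were taken as every row of the count table whose symbol begins with EIF1 to EIF6, EEF1 or EEF2, which gave 71 of 19447 gene symbols. By role they comprised 14 ternary complex and start-site factors, 5 subunits of eIF2B, 4 eIF2 kinases, 14 genes of eIF3, 12 genes of eIF4F and its helpers, 4 eIF4E-binding proteins, 3 genes of eIF5A, 7 genes of eEF1 and eEF2 and 7 genes for the eEF2 kinase and the methyltransferases of elongation factors, with 1 read-through transcript, EEF1AKMT4-ECE2, outside these sets. Of the 71, 68 passed the filter on low counts in each comparison. EIF4E1B and the read-through transcript had almost no counts in any library, and the Y-linked EIF1AY was counted as a member without further values.

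Protein synthesis begins when eIF2, carrying GTP and the initiator methionyl-tRNA, joins the small ribosomal subunit with eIF1, eIF1A, eIF3 and eIF5, while eIF4F (the cap-binding eIF4E, the scaffold eIF4G and the helicase eIF4A) brings the messenger RNA. eIF2B recharges eIF2 with GTP, and kinases that phosphorylate the alpha subunit of eIF2 block that step during stress. eEF1A then delivers each aminoacyl-tRNA to the ribosome and eEF2 moves the ribosome along. Messengers of several of these factors, and of ribosomal proteins, begin with a cytosine followed by a run of pyrimidines, the 5′ terminal oligopyrimidine (TOP) tract, through which mTORC1 controls their translation. Lycorine, an alkaloid of Amaryllidaceae plants, is known as an inhibitor of eukaryotic protein synthesis.

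Messenger RNA was sequenced from 4 groups of 3 libraries. K562 is a chronic myeloid leukaemia line of erythroleukaemic character that carries the BCR-ABL fusion, and here it is the untreated parental line. K562+L is the same line given lycorine. K562/IM is the line selected from K562 with rising doses of imatinib, the BCR-ABL kinase inhibitor, and kept in that drug, and K562/IM+L is that line given lycorine. The parental and the resistant line are 1 line each, nothing in the labels says that replicates came from separate cultures, and p-values therefore measure the spread between these libraries only. How long cells were exposed to lycorine before sequencing is not given in the sources used here. The sample titles give the K562/IM+L libraries the code G2, which does not follow the order of the other codes, so the text below speaks of the labelled libraries, meaning these 3.

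Total counts ran from 75093844 to 107344598 per library. The 11 erythroid genes checked (GATA1, TAL1, KLF1, globins and others) were all detected in every group, and their summed level was 6241 to 8673 CPM (counts scaled to library size) in K562, 4221 to 4839 in K562+L, 2986 to 3235 in K562/IM and 32690 to 45890 in K562/IM+L as labelled. All 11 were higher in labelled libraries than in K562/IM, and 9 of 11 were higher and none lower than in K562. GATA1 had a mean of 249.8 CPM in the labelled libraries and reached 263.5 in K562. These libraries therefore stand apart from the other 9 in the summed level of the erythroid genes. Of the 13 markers of other cells, MS4A1 was at 0 in all 12 libraries. CD3D reached a mean of 22.0 CPM in K562/IM, and EPCAM and KRT8 had means of 127.9 and 352.7 CPM in K562. The part of these markers in the results below was not tested. In bulk RNA, fewer cells of a type and less RNA per cell cannot be told apart. Among the 68 tested factors, replicate 3 of the labelled libraries was the lowest of its group for 45, and K562 replicate 1 was the lowest of its group for 37.

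The annotated start sites carry a feature by which the factors are grouped further below. RefSeq's table of starts (GRCh38.p14) held 56 of the 71 genes. A pyrimidine start, defined after the values had been seen as a C at the first transcribed base with 4 more pyrimidines after it, was found at an annotated start of 13 of these 56 genes (23.2%), against 5.14% of 27305 genes and 4.07% of 35116 starts in the whole table. They were EEF1A1, EEF1B2, EEF2, EIF2A, EIF2D, EIF2S3, its retrocopy EIF2S3B, EIF3D, EIF3F, EIF3K, EIF3M, EIF4A2 and EIF4B. Windows of 15 bases before and 15 bases from the start are shown for 6 of them, in transcript direction, with the pyrimidine run from the first transcribed base in capitals. 
EEF1A1 (chr6:73521018-73521047, minus strand): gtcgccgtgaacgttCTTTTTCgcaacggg
EEF2 (chr19:3985449-3985478, minus strand): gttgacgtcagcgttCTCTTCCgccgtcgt
EEF1B2 (chr2:206159880-206159909, plus strand): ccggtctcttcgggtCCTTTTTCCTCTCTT
EIF3F (chr11:7987322-7987351, plus strand): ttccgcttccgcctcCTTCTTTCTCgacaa
EIF4B (chr12:53006441-53006470, plus strand): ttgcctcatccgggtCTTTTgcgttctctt
EIF2S3 (chrX:24054941-24054970, plus strand): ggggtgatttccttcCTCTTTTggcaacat
In EEF1A1 and EEF2 the run was 7 bases long, and in EEF1B2 it continued to the end of the window.

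A second feature of the same table was the E-box, CACGTG, the motif of MYC and related factors, which reads the same on both strands. It lay in the 300 bases around a start (250 before and 50 after) of 15 of the 56 genes (26.8%), against 8.77% of all genes and 7.26% of all starts. The ETS motif CCGGAAG, searched on both strands, was present in 15 genes (26.8%, against 12.2% of all genes and 10.3% of starts), and TGATGNAA, the core of the C/EBP-ATF response element also searched on both strands, in 1 gene (1.79%, against 4.46% of genes and 3.62% of starts). Matches of the 3 motifs were counted separately, whether or not they overlapped. EIF4E and EIF4G1, described below for their fall in the labelled libraries, both hold E-boxes. So do EIF1B, EIF3F, EIF3K, EIF4B and EEF2K, which were higher there than in K562/IM. Counts in both directions are given further below. The E-boxes of EIF4E and EIF4G1 are shown with 15 bases on each side and the motif in capitals.
EIF4E (chr4:98929338-98929373, minus strand): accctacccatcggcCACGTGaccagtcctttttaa
EIF4E (chr4:98929185-98929220, minus strand): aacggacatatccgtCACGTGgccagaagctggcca
EIF4G1 (chr3:184314447-184314482, plus strand): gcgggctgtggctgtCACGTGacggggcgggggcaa
EIF4G1 (chr3:184314524-184314559, plus strand): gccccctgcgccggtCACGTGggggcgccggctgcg
A match describes the letters of the window and is not evidence that a factor binds there.

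EEF1A1 had the highest mean CPM of all genes in each of the 4 groups, and EEF2 ranked between 3 and 5. These ranks take no account of transcript length. Together the 71 factors took 4.20% of counts in K562 (SD 0.163, n = 3), 3.57% in K562+L (SD 0.011), 3.44% in K562/IM (SD 0.042) and 4.73% in the labelled libraries (SD 0.052). The 3 libraries of each group did not overlap those of any other in this share. Most of the difference lay in elongation: the 7 genes of eEF1 and eEF2 summed to 24120 to 28689 CPM in K562, 18932 to 19298 in K562+L, 18229 to 18987 in K562/IM and 33064 to 36486 in the labelled libraries. Without EEF1A1, the other 70 factors took 2.37% of counts in K562, 2.27% in K562+L, 2.01% in K562/IM and 2.22% in the labelled libraries.

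Apart from ranks by CPM, levels of different genes were compared as CPM per kilobase of transcript, and only in K562. EEF1A1 had 4309 CPM per kilobase, the highest of the 7 eEF genes, and its tissue-restricted paralog EEF1A2 was the lowest with 41.1. EIF4A1, the helicase of eIF4F, led its set with 699.4, and EIF4E3 was the lowest tested member of that set with 0.349. Within eIF3 EIF3K was highest (442.8) and EIF3F lowest (27.7), within the start-site factors EIF2S3 was highest (273.5) and EIF2S3B lowest (3.18), and within the kinases EIF2AK1 (HRI) was highest (71.3) and EIF2AK3 (PERK) lowest (3.47). EIF2B3 led eIF2B with 105.7 and EIF2B2 was lowest with 9.33, EIF4EBP1 led the binding proteins with 73.6 and EIF4EBP3 was lowest with 1.09, EIF5A stood at 568.4 against 1.41 for EIF5AL1, and EEF1AKNMT led the last set with 42.6 against 2.63 for EEF1AKMT1. The order depends on the transcript chosen for each gene. Per kilobase of coding sequence the highest members became EIF2B1, EIF4EBP2 and EIF1 in their sets, and EIF3CL replaced EIF3F as the lowest of eIF3.

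Each factor was then compared between groups, with fold changes as log2 ratios and p from the quasi-likelihood test of edgeR, adjusted by Benjamini and Hochberg's method over all genes tested. A factor is called higher or lower at an adjusted p under 0.05. Comparisons that share a group (K562, or K562/IM) share its libraries, so their values are given side by side and are not independent of each other. The shares of all genes called, given next for each comparison, also stand beside the counts by complex, list and start feature further below.

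In K562+L against K562, 11 factors were higher and 10 lower of 68, or 16.2% and 14.7%, where 18.2% of all genes tested were higher and 19% lower. In the main edgeR fit none passed a log2 fold change of 1 in either direction, against 2.38% of all genes higher and 4.01% lower. With DESeq2 or with counts divided by 4, and also without K562 replicate 1 or K562+L replicate 2, 1 factor was lower by that much. The median over the factors was -0.01, beside 0.00 over all genes. These counts leaned on single libraries: without K562 replicate 1 they were 14 higher and 18 lower, without K562 replicate 2 7 and 6, without K562+L replicate 1 also 7 and 6, without K562+L replicate 2 6 and 10, and without K562+L replicate 3 7 and 7. Of the 21 called, 11 kept the call whichever library was left out. The other 10 were EEF1AKNMT, EIF2B2, EIF2B3, EIF2S1, EIF3C, EIF3F, EIF3H, EIF4E, EIF4EBP1 and EIF5A, which kept their direction but reached an adjusted p of up to 0.12 (EIF3H, without K562 replicate 2). In K562/IM against K562, 6 were higher and 48 lower, or 8.82% and 70.6%, where 30.1% of all genes were higher and 27.1% lower. Past a log2 fold change of 1 there were 2 on either side, against 13.9% of genes higher and 5.29% lower, and the median was -0.43 beside 0.04 over all genes. The 2 lower by that much became 6 without K562 replicate 1, 1 without K562 replicate 3, 4 without K562/IM replicate 3 and 4 with DESeq2. Of the 34 called factors picked for this comparison by the naming rule given under processing, 30 kept the call whichever library was left out. EEF1A2, EIF4A2, EIF4ENIF1 and EIF4G1 lost it without K562 replicate 2 (adjusted p of 0.065 to 0.11) and each without at least 2 of the K562/IM libraries. Other called factors given below, among them EIF2S2, EIF5 and EIF6, were not followed singly through these fits, in which the 48 lower ranged from 40 to 50.

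With K562/IM+L as labelled set against K562/IM, 23 factors were higher and 19 lower, or 33.8% and 27.9%, beside 33.2% and 33.6% of all genes. Past the fold threshold were 3 higher and 2 lower, against 14.7% and 13.8% of all genes, and the median was -0.01 for the factors and -0.01 for all genes. The 3 higher by that much became 6 with upper-quartile scaling and 5 without labelled replicate 3, and ranged from 2 to 5 over the libraries left out. Of 34 called factors picked by the naming rule 29 kept the call whichever library was left out. EEF1AKMT3, EEF1AKNMT, EIF2AK2, EIF3A and EIF4EBP3 lost it in 3 or 4 of the fits that left out a K562/IM or a labelled library (adjusted p of 0.050 to 0.11). Against K562, the labelled libraries had 6 factors higher and 34 lower, or 8.82% and 50%, beside 28.2% and 27.8% of all genes. Past the fold threshold 1 was higher and 10 were lower, against 14.9% and 8.91% of all genes, and the median was -0.32 beside 0.02. Without K562 replicate 1 the 10 became 15, and the 1 higher was lost without K562 replicate 2 or 3 or labelled replicate 2. Upper-quartile scaling shifted the median of all genes in that last comparison to 0.17 and gave 15 factors higher and 28 lower. Of 27 called factors picked by the naming rule, EIF5A2 lost its call without K562 replicate 1 or 2 or without labelled replicate 1 or 2 (adjusted p of 0.066 to 0.11). The other 26 kept theirs whichever library was left out. The 6 higher became 10 without K562 replicate 3 and 11 without labelled replicate 3. The lycorine effect in K562/IM, as labelled, minus that in K562 was higher for 26 factors and lower for 21, or 38.2% and 30.9%, beside 29.9% and 31.7% of all genes. Of 35 called factors picked by the naming rule in that difference 34 kept the call whichever library was left out. EIF4EBP1 lost it in 6 of those fits (adjusted p of 0.053 to 0.090).

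**Figure D1:**
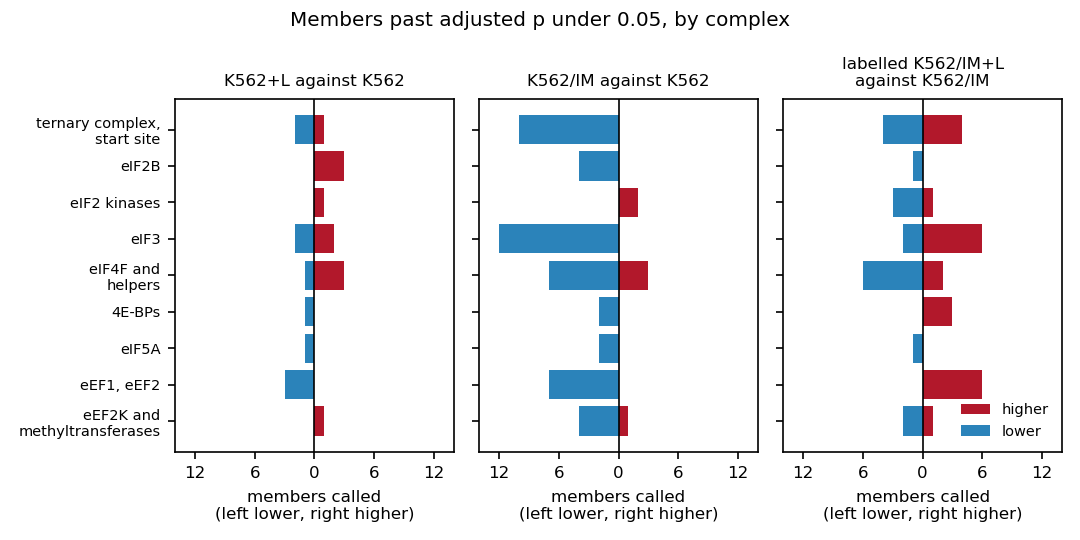
Number of factors with an adjusted p under 0.05 in each complex (vertical axis), drawn to the right where higher and to the left where lower, for 3 comparisons. In K562/IM against K562, 12 of 14 eIF3 genes and 7 of 7 eEF genes are lower, and in the labelled libraries against K562/IM 6 of 7 eEF genes are higher.

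**Figure D2:**
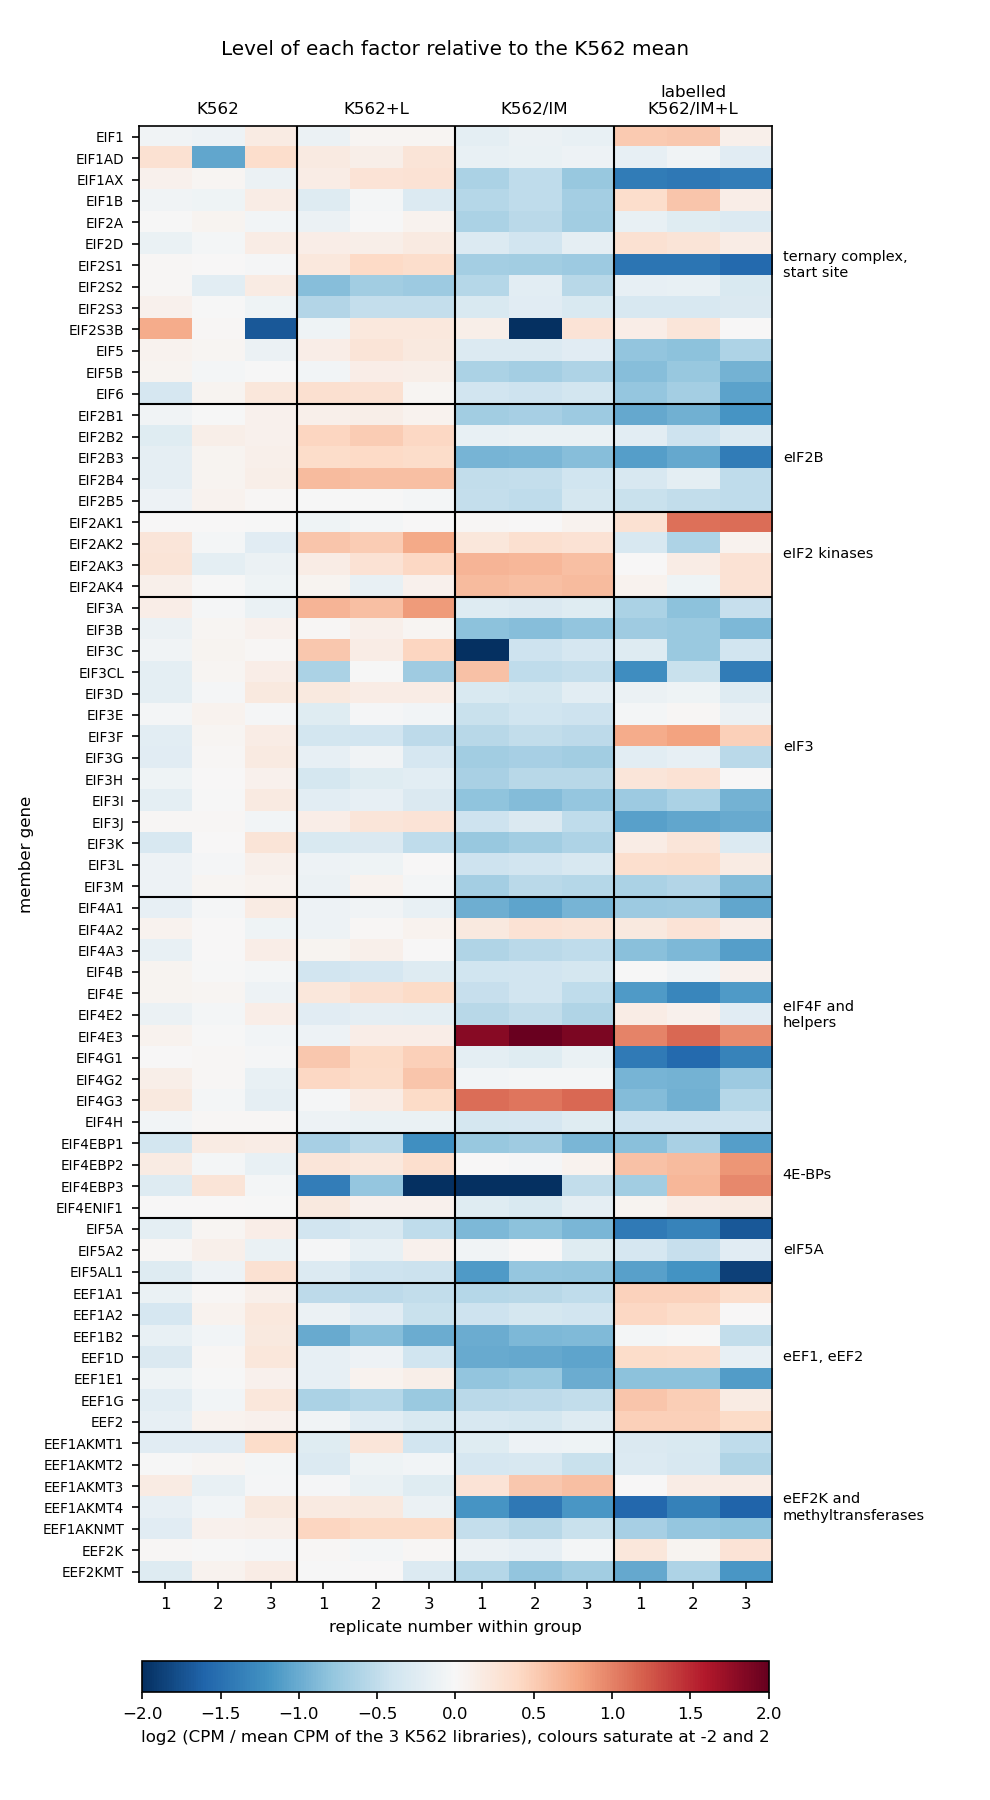
Level of each of the 68 tested factors (rows, by complex) in each of the 12 libraries (columns), as log2 of CPM over the mean of the 3 K562 libraries, in colours that saturate at -2 and 2. EIF4E3 and EIF4G3 are raised in all 3 K562/IM libraries, and EIF1AX, EIF2S1, EIF4G1 and EIF5A are lowest in the libraries labelled K562/IM+L.

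Among the ternary complex and start-site factors, the alpha subunit of eIF2 differed in all 4 comparisons between groups. EIF2S1 (chr14:67359997-67386516), the subunit whose phosphorylation stops eIF2 recycling, had 254, 252 and 248 CPM in K562, 290.0, 331 and 320.4 in K562+L, 156, 156 and 152 in K562/IM and 91.8, 91.1 and 86.0 in the labelled libraries. The 4 groups did not overlap, with the treated parental libraries highest and the labelled libraries lowest. It rose in K562+L (log2 fold change 0.32, SE 0.08, adjusted p = 0.017) and fell in K562/IM (log2 fold change -0.70, SE 0.06, adjusted p = 6.7e-05), in the labelled libraries against K562/IM (log2 fold change -0.76, SE 0.06, adjusted p = 3.5e-05) and in these against K562 (log2 fold change -1.51, SE 0.08, adjusted p = 1.4e-05).

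The other subunits of eIF2 were also lower in K562/IM, but in K562+L they fell where EIF2S1 rose. EIF2S2, the beta subunit, had 396, 336 and 435 CPM in K562, 216, 241 and 235 in K562+L, 261, 335 and 264 in K562/IM and 346, 353 and 316 in the labelled libraries. It fell in K562+L (log2 fold change -0.76, SE 0.11, adjusted p = 0.002), where the libraries did not overlap those of K562, and in K562/IM (log2 fold change -0.44, SE 0.13, adjusted p = 0.021). EIF2S3, the gamma subunit that binds GTP and the initiator tRNA, fell in K562+L (log2 fold change -0.52, SE 0.08, adjusted p = 0.0024) and in K562/IM (log2 fold change -0.28, SE 0.07, adjusted p = 0.0098), and its log2 fold change was -0.01 in the labelled libraries against K562/IM (adjusted p = 0.95) and -0.33 against K562 (adjusted p = 0.01), where it was called lower as EIF2S1 was. The retrocopy EIF2S3B, whose counts cannot be kept apart from those of EIF2S3 with certainty, ranged from 0.916 to 8.52 CPM.

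EIF1AX (chrX:20124518-20141844), which encodes eIF1A and helps the scanning ribosome to find the start codon, had 376, 365 and 327 CPM in K562, 396, 431 and 437 in K562+L, 229.6, 250.2 and 210.3 in K562/IM and 136, 132 and 136 in the labelled libraries. K562/IM lay below K562 and the labelled libraries lay below K562/IM, without overlap. It fell by 0.63 on the log2 scale in K562/IM (SE 0.09, adjusted p = 0.00075), by 0.75 in the labelled libraries against K562/IM (SE 0.08, adjusted p = 0.00013) and by 1.42 in these against K562 (SE 0.09, adjusted p = 2.3e-05). EIF1 and its paralog EIF1B, which guard start codon choice, were instead higher in labelled libraries than in K562/IM, by 0.58 (adjusted p = 0.0032) and 0.97 (adjusted p = 0.0002). EIF1B had 39.4, 41.2 and 36.4 CPM in K562/IM and 74.9, 85.8 and 64.0 in the labelled libraries, and these did not overlap.

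EIF5, the GTPase-activating partner of eIF2, fell in K562/IM (log2 fold change -0.26) and further in the labelled libraries (-0.45 against K562/IM). EIF5B, which joins the ribosomal subunits, had -0.64 in K562/IM and -0.87 in the labelled libraries against K562, both called. EIF6, which keeps free large subunits apart from small ones, had -0.39 and -0.85, also called. EIF2A and EIF2D, which can deliver initiator tRNA without eIF2, were lower in K562/IM (-0.62 and -0.27) and higher in labelled libraries than in K562/IM (0.43 and 0.53). EIF1AD was called in no comparison, and its K562 values of 54.0, 21.2 and 55.3 CPM had replicate 2 far below the other two.

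Of the 5 subunits of eIF2B, the exchange factor of eIF2, 3 were higher in K562+L and none lower. EIF2B4 (delta) had 59.8, 70.4 and 74.1 CPM in K562, 106, 103 and 103 in K562+L, 48.4, 48.8 and 51.5 in K562/IM and 54.4, 59.3 and 47.6 in the labelled libraries. All 3 K562+L libraries lay above all 3 K562 libraries, and K562/IM lay below them. The log2 fold change in K562+L was 0.61 (SE 0.10, adjusted p = 0.0034), and it was 0.45 for EIF2B2 (beta, SE 0.11, adjusted p = 0.016) and 0.38 for EIF2B3 (gamma, SE 0.09, adjusted p = 0.016). In K562/IM 4 of 5 subunits were lower, led by EIF2B3 (log2 fold change -0.90, SE 0.09, adjusted p = 0.00011) and EIF2B1 (alpha, log2 fold change -0.70, SE 0.07, adjusted p = 0.00014). EIF2B5, the catalytic epsilon subunit, had 77.6, 88.0 and 84.5 CPM in K562 and 59.7, 58.4 and 65.1 in K562/IM without overlap (log2 fold change -0.45, SE 0.08, adjusted p = 0.0022), and did not pass the test in K562+L (log2 fold change -0.02, SE 0.08, adjusted p = 0.85).

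Against K562, EIF2B3 and EIF2B1 fell in the labelled libraries by over 1 on the log2 scale (log2 fold change -1.18, SE 0.14, adjusted p = 0.00033 and log2 fold change -1.07, SE 0.10, adjusted p = 0.00012). EIF2B3 had 155, 181 and 189 CPM in K562, 226, 231 and 227 in K562+L, 91.7, 92.8 and 96.6 in K562/IM and 81.9, 86.7 and 66.5 in the labelled libraries. The groups did not overlap, and K562+L stood highest. Against K562/IM the labelled libraries had 1 subunit lower, EIF2B1 (log2 fold change -0.33, SE 0.07, adjusted p = 0.0053). All 5 subunits together summed to 497.1 to 580.5 CPM in K562, 652.8 to 668.9 in K562+L, 346.7 to 358.2 in K562/IM and 285.1 to 327.4 in the labelled libraries, with no overlap between groups.

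The 4 kinases of eIF2 alpha answer different signals. EIF2AK1 (HRI, chr7:6022244-6059230), the haem-regulated kinase of erythroid cells, had 319.8, 321 and 316 CPM in K562, 299.7, 311 and 321 in K562+L, 324, 321 and 334 in K562/IM and 393, 686 and 688 in the labelled libraries. Levels in the first 3 groups lay between 299.7 and 334.1, and the labelled libraries lay above them all, with replicate 1 well below the other two. Its log2 fold change against K562/IM was 0.88 (SE 0.20, adjusted p = 0.0062), the widest error of the 4 kinases in that comparison. The summed level of the erythroid genes listed above was also highest in the labelled libraries, with 43092, 45892 and 32688 CPM in replicate order. That sum lay below K562 in both K562+L and K562/IM. EIF2AK1 did not pass the test in K562+L (adjusted p = 0.69) or in K562/IM (adjusted p = 0.66). The part of the erythroid genes was not tested.

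EIF2AK2 (PKR), activated by double-stranded RNA, had 92.8, 76.6 and 67.2 CPM in K562, 115, 112 and 134 in K562+L, 92.6, 98.0 and 96.1 in K562/IM and 63.2, 51.2 and 83.02 in the labelled libraries. It was higher in K562+L without overlap (log2 fold change 0.61, SE 0.13, adjusted p = 0.01) and lower in labelled libraries than in K562/IM (log2 fold change -0.51, SE 0.16, adjusted p = 0.026). EIF2AK3 (PERK), the sensor of the endoplasmic reticulum, and EIF2AK4 (GCN2), the sensor of uncharged tRNA, were both higher in K562/IM. EIF2AK4 had 54.2, 50.3 and 47.6 CPM in K562, 78.8, 77.2 and 78.7 in K562/IM and 53.3, 47.6 and 62.0 in the labelled libraries. It rose by 0.62 in K562/IM (adjusted p = 0.0003) and EIF2AK3 by 0.65 (adjusted p = 0.0033). Both were lower in the labelled libraries when set against K562/IM, with -0.50 for EIF2AK4 (adjusted p = 0.0036) and -0.47 for EIF2AK3 (adjusted p = 0.0036), and neither passed the test in K562+L.

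Genes that act on eIF2 alpha beside the kinases, or lie downstream of it, were read from lists. Of 5 phosphatase subunits and GCN2 regulators, 2 were higher and none lower in K562+L, and the same counts held in K562/IM. PPP1R15A (GADD34), the stress-induced phosphatase subunit, rose by 1.49 in K562+L, by 1.27 in K562/IM and by 0.85 in the labelled libraries against K562/IM. Of 6 outputs of the integrated stress response, 2 were higher and 4 lower in K562+L: ATF3 (1.29) and DDIT3 (0.92) were higher, and CHAC1 (-3.59) and TRIB3 (-1.06) had the largest falls of the 4 that were lower. For the labelled libraries against K562/IM 3 were higher and none lower, with CHAC1 at 1.17 and ATF4 at 0.52.

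eIF3, the large scaffold that binds the small subunit, fell as a set in K562/IM and divided in the labelled libraries. In K562/IM 12 of 14 genes were lower and none higher, with a median of -0.56. EIF3B (log2 fold change -0.82, SE 0.07, adjusted p = 6.6e-05), a core subunit, EIF3I (log2 fold change -0.81, SE 0.10, adjusted p = 0.00032) and EIF3K (log2 fold change -0.69, SE 0.14, adjusted p = 0.0035) had the largest falls among those called. In the labelled libraries against K562/IM 6 were higher and 2 lower. In K562+L 2 were higher, EIF3A and EIF3C, and 2 lower, EIF3F and EIF3H.

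EIF3F (chr11:7970251-8001862), one of the subunits with a pyrimidine start, had 181, 214 and 232 CPM in K562, 163, 160.5 and 145 in K562+L, 142, 148 and 145 in K562/IM and 348, 366 and 289 in the labelled libraries. The labelled libraries lay above all others and K562+L and K562/IM lay below K562. It fell in K562+L (log2 fold change -0.42, SE 0.11, adjusted p = 0.019) and K562/IM (log2 fold change -0.52, SE 0.10, adjusted p = 0.0025), and rose in the labelled libraries against K562/IM (log2 fold change 1.23, SE 0.09, adjusted p = 2.6e-05) and against K562 (log2 fold change 0.66, SE 0.14, adjusted p = 0.0049). EIF3H and the peripheral EIF3K were also higher in labelled libraries than in K562/IM, by 0.80 (adjusted p = 0.00012) and 0.77 (adjusted p = 0.0014). EIF3L had 0.68, EIF3G 0.42 and EIF3E 0.40, all 3 called.

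EIF3A, the largest subunit of the core, went the other way. It had 643, 575 and 536 CPM in K562, 933, 889 and 1053 in K562+L, 488, 477 and 497 in K562/IM and 377, 331 and 424 in the labelled libraries. All K562+L libraries lay above all others and the labelled libraries lay lowest. The log2 fold change was 0.71 in K562+L (SE 0.10, adjusted p = 0.0018), -0.26 in K562/IM (SE 0.08, adjusted p = 0.023) and -0.34 in the labelled libraries against K562/IM (SE 0.10, adjusted p = 0.017). EIF3J, the loosely bound subunit that assists recycling, fell by 0.61 on the log2 scale in the labelled libraries against K562/IM (SE 0.08, adjusted p = 0.0003) and by 1.06 against K562 (SE 0.08, adjusted p = 4.4e-05). EIF3B was low in both K562/IM and the labelled libraries, and its log2 fold change between these was 0.06 (adjusted p = 0.46).

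EIF3C and EIF3CL are near-identical copies, and how reads were shared between them changed between libraries. EIF3C had 309, 338 and 330.0 CPM in K562, 470.4, 361 and 437 in K562+L, 64.8, 245 and 258 in K562/IM and 272, 196 and 248 in the labelled libraries. EIF3CL had 189, 223 and 238 CPM in K562, 139.7, 216 and 133 in K562+L, 324, 152 and 156 in K562/IM and 91.1, 159 and 82.3 in the labelled libraries. In K562/IM replicate 1 EIF3C was lowest and EIF3CL highest of all 12 libraries, while their sum there was 389.0 CPM, next to 396.7 and 414.3 in the other two. The separate values of the 2 genes are therefore uncertain. With the 2 counts added, a step chosen after seeing the data, the log2 fold change was 0.11 in K562+L (SE 0.08, adjusted p = 0.31), where EIF3C alone was called at 0.38 (adjusted p = 0.028). The sum fell in K562/IM (-0.44, SE 0.07, adjusted p = 0.0016), where neither gene alone was called.

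**Figure D3:**
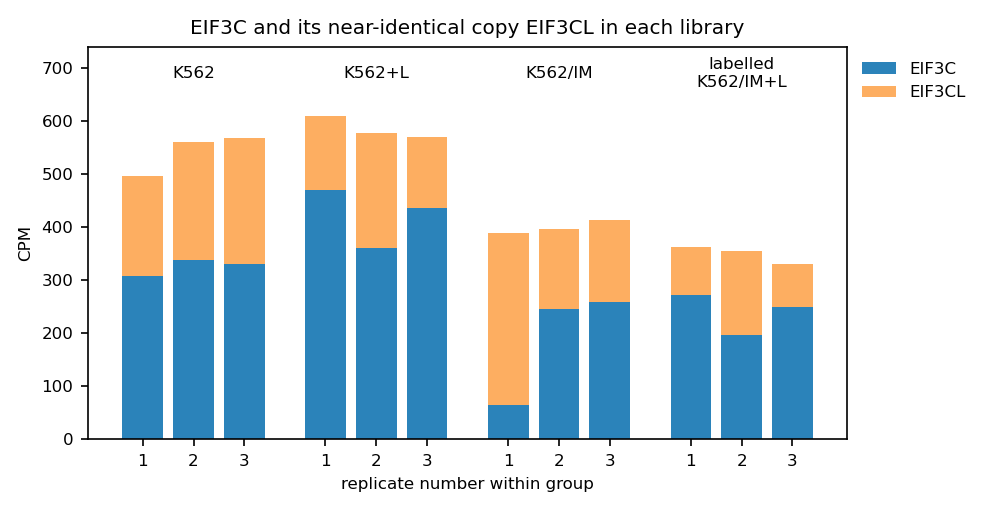
CPM of EIF3C (blue) and EIF3CL (orange) stacked for each of the 12 libraries (horizontal axis, by group and replicate number). The sum varies between 330.7 and 610.0, while the part of EIF3C falls to 64.8 in K562/IM replicate 1.

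The labelled libraries had less of all 3 eIF4G genes than either K562/IM or K562. EIF4G1 (chr3:184314495-184335358), the main scaffold, had 533, 540.2 and 524 CPM in K562, 776, 694 and 744 in K562+L, 467, 450.3 and 484 in K562/IM and 199, 182 and 211 in the labelled libraries. The 4 groups did not overlap, with K562+L highest and the labelled libraries lowest. The rank of its mean CPM among all genes, which takes no account of transcript length, went from 265 in K562 to 875 in the labelled libraries. It rose in K562+L (log2 fold change 0.47, SE 0.07, adjusted p = 0.0028) and fell in K562/IM (log2 fold change -0.19, SE 0.06, adjusted p = 0.029). In the labelled libraries it fell by 1.22 on the log2 scale against K562/IM (SE 0.08, adjusted p = 1.2e-05) and by 1.45 against K562 (SE 0.08, adjusted p = 1.9e-05).

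Its paralogs shared part of this. EIF4G2 (DAP5), which supports initiation without the cap, was higher in K562+L (log2 fold change 0.45, SE 0.09, adjusted p = 0.0075) and lower in labelled libraries than in K562/IM (log2 fold change -0.79, SE 0.08, adjusted p = 9e-05), while its value in K562/IM against K562 was -0.05 (adjusted p = 0.64). EIF4G3 had 50.2, 43.1 and 38.9 CPM in K562, 43.5, 48.9 and 57.2 in K562+L, 95.3, 92.1 and 97.7 in K562/IM and 24.0, 22.5 and 29.6 in the labelled libraries. K562/IM lay above the other groups and the labelled libraries lay below them. It rose in K562/IM (log2 fold change 1.11, SE 0.10, adjusted p = 8.3e-05) and fell in the labelled libraries against K562/IM (log2 fold change -1.88, SE 0.11, adjusted p = 8.1e-06), the largest fall of any factor in any of the 4 pairwise comparisons.

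EIF4E (chr4:98871684-98930637), the protein that binds the cap, had 110.3, 108 and 99.3 CPM in K562, 124, 132 and 139 in K562+L, 77.1, 81.6 and 74.8 in K562/IM and 48.2, 43.1 and 48.5 in the labelled libraries. K562+L lay highest, then K562, K562/IM and the labelled libraries, with no overlap. It rose in K562+L (log2 fold change 0.31, SE 0.09, adjusted p = 0.026), fell in K562/IM (log2 fold change -0.45, SE 0.08, adjusted p = 0.0016) and was lower again in the labelled libraries (log2 fold change -0.71, SE 0.08, adjusted p = 0.00013 against K562/IM, log2 fold change -1.20, SE 0.09, adjusted p = 4.3e-05 against K562). EIF4E3, an atypical cap-binding relative, had 3.63, 3.45 and 3.33 CPM in K562, 3.22, 3.80 and 3.79 in K562+L, 12.3, 13.7 and 12.7 in K562/IM and 6.93, 7.68 and 6.66 in the labelled libraries. Its level was low throughout, but K562/IM exceeded K562 in all libraries (log2 fold change 1.90, SE 0.11, adjusted p = 7.6e-06), the largest rise among the factors in that comparison, and the labelled libraries lay between (log2 fold change -0.84, SE 0.11, adjusted p = 0.0003 against K562/IM). EIF4E2 (4EHP), a cap-binding repressor, fell in K562/IM (-0.54) and was higher in the labelled libraries than there (0.58).

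The helicase EIF4A1 had 1096, 1212 and 1377 CPM in K562, 1143, 1173 and 1107 in K562+L, 627, 589.6 and 647 in K562/IM and 739.5, 753 and 601 in the labelled libraries. K562/IM and the labelled libraries lay below all K562 and K562+L libraries. It fell by 0.98 on the log2 scale in K562/IM (SE 0.09, adjusted p = 9.1e-05), and did not pass the test in K562+L (log2 fold change -0.11, SE 0.09, adjusted p = 0.39) or in the labelled libraries against K562/IM (log2 fold change 0.19, SE 0.10, adjusted p = 0.11). Its paralog EIF4A2 rose slightly in K562/IM (log2 fold change 0.24, SE 0.07, adjusted p = 0.019), and its values did not pass the test in K562+L (-0.00, adjusted p = 0.99) or in the labelled libraries against K562/IM (-0.02, adjusted p = 0.82). EIF4A3, the helicase of the exon junction complex, fell in K562/IM (-0.55) and in the labelled libraries against K562/IM (-0.36). EIF4B, which stimulates eIF4A and has a pyrimidine start, had 1063, 1016 and 994 CPM in K562, 786, 813 and 855 in K562+L, 779.9, 784 and 805 in K562/IM and 1015, 976 and 1091 in the labelled libraries. K562+L and K562/IM lay below K562, and the labelled libraries overlapped K562. The changes were -0.33 in K562+L (adjusted p = 0.0094), -0.38 in K562/IM (adjusted p = 0.0011) and 0.41 in the labelled libraries against K562/IM (adjusted p = 0.0014).

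**Figure D4:**
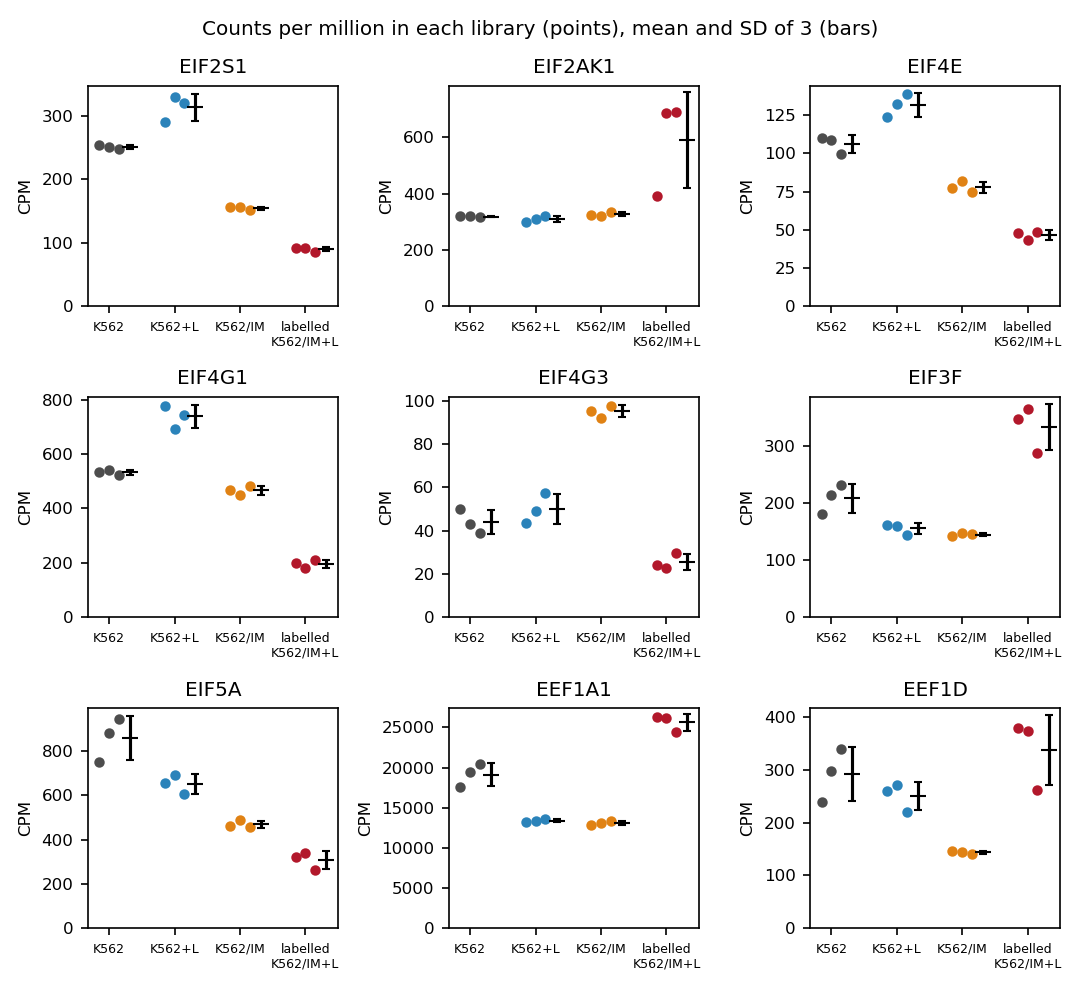
CPM in each library (points) for 9 factors, with the mean and SD of 3 libraries (black) beside each group. EIF4G1, EIF4E and EIF2S1 are lowest in the libraries labelled K562/IM+L, where EEF1A1, EIF3F and EIF2AK1 are highest, and EIF4G3 is highest in K562/IM.

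The eIF4E-binding proteins hold eIF4E away from eIF4G until mTORC1 phosphorylates them. EIF4EBP1, the best known of them, had 58.2, 83.8 and 83.3 CPM in K562, 47.4, 51.6 and 32.3 in K562+L, 44.4, 45.8 and 39.8 in K562/IM and 42.0, 48.1 and 35.2 in the labelled libraries. K562+L and K562/IM lay below all K562 libraries, and the labelled libraries overlapped K562/IM. It fell in K562+L (log2 fold change -0.78, SE 0.20, adjusted p = 0.019) and in K562/IM (log2 fold change -0.79, SE 0.15, adjusted p = 0.0024), and its value in the labelled libraries against K562/IM was -0.03 (adjusted p = 0.85). EIF4EBP2 had 217, 187 and 175 CPM in K562, 229, 224 and 243 in K562+L, 194, 190.0 and 202 in K562/IM and 290.4, 300.1 and 358 in the labelled libraries. The labelled libraries lay above all others (log2 fold change 0.72, SE 0.10, adjusted p = 0.00039 against K562/IM, log2 fold change 0.69, SE 0.12, adjusted p = 0.0022 against K562).

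EIF4EBP3 stayed at or below 1.47 CPM in all libraries. It was higher in labelled libraries than in K562/IM (log2 fold change 1.96, SE 0.70, adjusted p = 0.038), with overlapping values of 0.466, 1.19 and 1.47 and 0.18, 0.0937 and 0.532 CPM. EIF4ENIF1, which carries eIF4E into the nucleus, fell in K562/IM (-0.24) and was higher in the labelled libraries than there (0.39). Among 7 eIF4 kinases and mTORC1 genes, 2 were higher and 3 lower in K562+L, with MTOR at 0.52, MLST8 at -0.70 and the eIF4E kinase MKNK2 at -0.71. Between the labelled libraries and K562/IM 2 were higher and 2 lower, with MTOR at -0.87 and RPS6KB2 at 0.83.

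eIF5A helps the ribosome through difficult stretches and at termination, and works only with the modified lysine hypusine. EIF5A (chr17:7306999-7312463) had 749.7, 882 and 945 CPM in K562, 657, 690.1 and 604 in K562+L, 460.5, 488 and 457 in K562/IM and 322, 341 and 264 in the labelled libraries. The 4 groups did not overlap and were ordered K562, K562+L, K562/IM and labelled libraries from the highest to the lowest. It fell in K562+L (log2 fold change -0.40, SE 0.10, adjusted p = 0.018), in K562/IM (log2 fold change -0.88, SE 0.09, adjusted p = 0.00017), and in the labelled libraries by 0.57 on the log2 scale against K562/IM (SE 0.10, adjusted p = 0.0015) and by 1.49 against K562 (SE 0.14, adjusted p = 0.00012). EIF5AL1, a near copy whose reads may come from EIF5A, fell by 1.36 on the log2 scale in the labelled libraries against K562 (SE 0.27, adjusted p = 0.004). The paralog EIF5A2 had 17.3, 18.1 and 15.4 CPM in K562 and 13.4, 12.3 and 14.5 in the labelled libraries (log2 fold change -0.36, SE 0.11, adjusted p = 0.028), and did not pass the test in K562+L (-0.02, adjusted p = 0.88) or K562/IM (-0.10, adjusted p = 0.46).

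Of 8 enzymes that make hypusine on eIF5A or diphthamide on eEF2, 6 were lower and none higher in K562/IM, with a median of -0.47. DPH2 fell by 0.82 on the log2 scale, DPH6 by 0.80 and DOHH, which completes hypusine, by 0.65. Between the labelled libraries and K562/IM 1 was higher, DPH6 (1.04), and 2 lower, DPH2 (-1.21) and DPH1 (-0.43). In K562+L 2 were higher and 2 lower.

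The elongation factors accounted for most of the change in CPM. EEF1A1 (chr6:73515750-73523797) had 17543, 19411 and 20456 CPM in K562, 13249, 13316 and 13579 in K562+L, 12823, 13089 and 13397 in K562/IM and 26301, 26229 and 24401 in the labelled libraries. K562+L and K562/IM lay below K562, and the labelled libraries lay above it. It fell in K562+L (log2 fold change -0.52, SE 0.07, adjusted p = 0.0013) and K562/IM (log2 fold change -0.55, SE 0.06, adjusted p = 0.00027), and rose in the labelled libraries against K562/IM (log2 fold change 0.99, SE 0.06, adjusted p = 1.1e-05) and against K562 (log2 fold change 0.40, SE 0.09, adjusted p = 0.006). EEF1A2 moved less, with -0.38 in K562/IM (adjusted p = 0.039), 0.68 in the labelled libraries against K562/IM (adjusted p = 0.001) and -0.26 in K562+L (adjusted p = 0.21).

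The exchange factors of eEF1A are the subunits beta, gamma and delta. EEF1B2 (beta) had 433, 464 and 550.2 CPM in K562, 239.8, 268 and 242 in K562+L, 243, 259 and 260.5 in K562/IM and 467, 480.1 and 343 in the labelled libraries. K562+L and K562/IM lay far below K562, and the labelled libraries overlapped K562. The changes were -0.95 in K562+L (SE 0.11, adjusted p = 0.00078), -0.93 in K562/IM (SE 0.10, adjusted p = 0.00016) and 0.78 in the labelled libraries against K562/IM (SE 0.13, adjusted p = 0.001). EEF1G (gamma) had 2186, 2436 and 2946 CPM in K562, 1623, 1699.8 and 1503 in K562+L, 1737, 1763 and 1786 in K562/IM and 3703, 3548 and 2839 in the labelled libraries. The log2 fold change was -0.65 in K562+L, -0.52 in K562/IM and 0.96 in the labelled libraries against K562/IM, all 3 called.

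EEF1D (delta, chr8:143579697-143599541) had 238, 297 and 339.7 CPM in K562, 259.6, 272 and 220.2 in K562+L, 146, 144 and 141 in K562/IM and 378, 373 and 261 in the labelled libraries. The K562/IM libraries lay below all others, and labelled replicate 3 lay well below the other two of its group. It fell by 1.02 on the log2 scale in K562/IM (SE 0.12, adjusted p = 0.00032) and rose by 1.26 in the labelled libraries against K562/IM (SE 0.14, adjusted p = 0.00015). EEF2, the translocase, had 3482, 4054 and 4109 CPM in K562, 3687, 3351 and 3129.5 in K562+L, 3114, 3045 and 3248 in K562/IM and 5424, 5429.9 and 5053 in the labelled libraries. K562/IM lay below K562 (log2 fold change -0.31, SE 0.08, adjusted p = 0.0091), the labelled libraries lay above all others (log2 fold change 0.78, SE 0.06, adjusted p = 3.5e-05 against K562/IM, log2 fold change 0.43, SE 0.09, adjusted p = 0.0062 against K562), and K562+L overlapped K562 (log2 fold change -0.20, SE 0.09, adjusted p = 0.12). EEF1E1, a scaffold of the tRNA synthetase complex that carries the eEF1 name, was the exception, with -0.83 in K562/IM (adjusted p = 0.00019) and -0.06 in the labelled libraries against K562/IM (adjusted p = 0.67).

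EEF2K, the kinase that inactivates eEF2, had 68.2, 67.1 and 66.2 CPM in K562, 68.3, 65.6 and 68.4 in K562+L, 61.8, 60.1 and 65.1 in K562/IM and 78.9, 70.2 and 80.8 in the labelled libraries. It was higher in labelled libraries than in K562/IM (log2 fold change 0.32, SE 0.08, adjusted p = 0.0084), and its values in K562+L (0.00, adjusted p = 0.97) and K562/IM (-0.11, adjusted p = 0.2) did not pass the test. EEF1AKMT4, a lysine methyltransferase of eEF1A that overlaps the read-through transcript, fell by 1.25 on the log2 scale in K562/IM (SE 0.14, adjusted p = 0.00023) and by 1.52 in the labelled libraries against K562 (SE 0.16, adjusted p = 0.0002). It had 9.54, 10.2 and 12.2 CPM in K562, 12.1, 12.3 and 9.83 in K562+L, 4.71, 3.94 and 4.78 in K562/IM and 3.59, 4.19 and 3.53 in the labelled libraries. EEF1AKNMT (METTL13), which methylates eEF1A at its start, was the only gene of this set called in K562+L (log2 fold change 0.39, SE 0.10, adjusted p = 0.02), and fell in K562/IM (-0.49). EEF2KMT fell in K562/IM (-0.68) and EEF1AKMT3 rose (0.48), both called.

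Read by start site, the factors with a pyrimidine start and the others are set side by side below, with counts and medians and no test between them. In K562+L against K562, 5 of the 13 with a pyrimidine start were lower and none higher, with a median of -0.20. Of the 41 tested with an annotated start and no such run, 2 were lower and 10 higher, with a median of 0.09. In the labelled libraries against K562/IM, 8 of the 13 were higher and none lower (median 0.43), and of the 41 others 8 were higher and 17 lower (median -0.21). In K562/IM against K562 both fell, with 11 of 13 lower and 1 higher (median -0.38) and 27 of 41 lower and 4 higher (median -0.45). These counts describe genes that were already measured when the feature was defined, and 2 of them (EIF2S3 and EIF2S3B) share sequence.

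**Figure D5:**
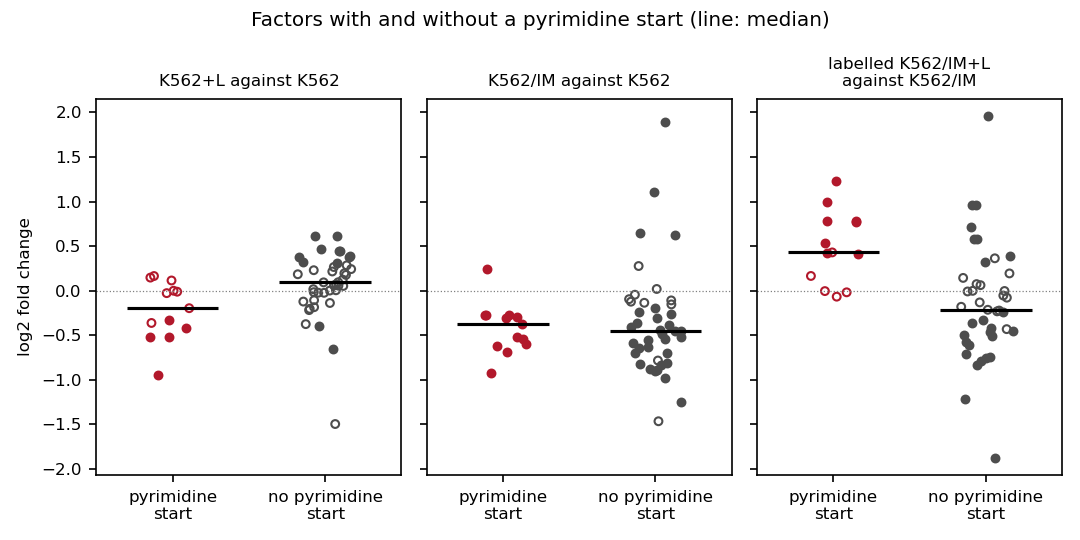
Log2 fold change (vertical axis) of 54 tested factors with a start in RefSeq's table, split by pyrimidine start (red, 13 genes) or none (grey, 41 genes), in 3 comparisons. Filled points have an adjusted p under 0.05, and lines mark medians, which lie at 0.43 and -0.21 in the labelled libraries against K562/IM.

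A list of 9 factors known for TOP messengers (EEF1A1, EEF1B2, EEF1D, EEF1G, EEF2, EIF3E, EIF3F, EIF3H and EIF4B) shared 5 genes with the 13. In K562+L 6 of 9 were lower and none higher, with a median of -0.33. All 9 were lower in K562/IM (median -0.52), and in the labelled libraries against K562/IM 9 of 9 were higher (median 0.80). Of all genes tested, 19% were lower in K562+L, 27.1% were lower in K562/IM and 33.2% were higher in the labelled libraries against K562/IM. The list was chosen with earlier results of these data known. Against K562, 3 of 9 were higher in the labelled libraries (EEF1A1, EEF2 and EIF3F) and none lower, rising to 5 of 9 without labelled replicate 3 or with upper-quartile scaling. Of the 11 erythroid genes, 7 were lower and none higher in K562+L, 7 lower and 1 higher in K562/IM, and 11 higher in labelled libraries than in K562/IM, and their part in these counts was not tested.

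For the E-box, the 14 tested factors that hold one and the 40 that do not were less distinct. In K562/IM 10 of 14 and 28 of 40 were lower. With the labelled libraries against K562/IM, 6 of 14 were higher and 4 lower, beside 10 and 13 of 40.

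Genes that work beside the 71 factors were counted from lists. Of 5 tested termination, recycling and rescue factors, 3 were higher and none lower in K562+L, and 1 was higher and 4 lower in both K562/IM and the labelled libraries against K562/IM. ABCE1, which splits the ribosome after termination, rose by 0.63 in K562+L and fell by 0.54 in K562/IM and by 1.05 in the labelled libraries against K562/IM, on the log2 scale. Of 10 initiation partners, 3 were higher and 3 lower in K562+L, 1 and 5 in K562/IM, and 2 and 3 in the labelled libraries against K562/IM. PDCD4, an inhibitor of eIF4A, fell by 0.62 in K562+L and rose by 0.41 in K562/IM and 0.76 in the labelled libraries against K562/IM. Of 6 mitochondrial translation factors 5 were lower in K562/IM, with a median of -0.52.

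The difference between the 2 lycorine effects was tested in 1 fit over 12 libraries. It was largest in the negative direction for EIF4G3 (-2.08, SE 0.18, adjusted p = 1.9e-06) and EIF4G1 (-1.71, SE 0.10, adjusted p = 6.3e-08), followed by EIF4G2 (-1.26), EIF2AK2 (-1.14) and EIF2S1 (-1.10). In the positive direction EIF4EBP3 had 3.44 (SE 1.00) at very low counts, and EEF1B2 (1.71, SE 0.18, adjusted p = 6.9e-06), EIF3F (1.63, SE 0.15, adjusted p = 2.7e-06), EEF1G (1.59, SE 0.16, adjusted p = 6.8e-06) and EEF1A1 (1.49, SE 0.08, adjusted p = 6.2e-08) followed with smaller errors. By set, 6 of 7 eEF genes were higher and none lower, 6 of 11 tested eIF4F genes were lower and 2 higher, and 4 of 5 eIF2B subunits were lower. Of the 9 TOP factors 9 were higher, with a median of 1.46, and of the 13 with a pyrimidine start 9 were higher and none lower. EIF5A had -0.19 (adjusted p = 0.28), which did not pass the test.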

How the data were processed

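Messenger RNA of 12 libraries, 3 for each line with and without lycorine, was sequenced by a company. The authors deposited 1 table of counts per gene symbol, without normalization. The submitters' processing notes name FastQC, STAR, StringTie, DESeq2 and hg38, with no versions or roles. The counting rule and its use of strand are not given in the sources used here. Of 23289 deposited counts from 1 to 25, 67.9% were a multiple of 4 or 1 above one, where 52% of whole numbers are, so a count may not equal 1 fragment.

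Libraries were grouped by their labels. The members and lists were chosen with earlier results of these data known. Counts were fitted with edgeR 4.0.16 in R 4.3.3 (TMM scaling, filterByExpr with a minimum count of 10, glmQLFit and glmQLFTest, Benjamini-Hochberg over all genes) on the 6 libraries compared, and the interaction on all 12. The calling threshold was an adjusted p of 0.05, and a second one added an absolute log2 fold change over 1. CPM used TMM over 12 libraries. The fitting step was tested on simulated counts, and the later steps were not.

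The naming rule picked fixed key factors of each role, up to 3 called members a direction in each role and comparison, and every member past the fold threshold. The highest and lowest per length were also named, and the text gives further members beside these. Single factors were followed through the alternative fits only where the naming rule had picked them for that comparison. Gene positions are from GENCODE 29 (GRCh38), lengths are of the annotated principal transcript, and start windows are from RefSeq (GRCh38.p14). Alternatives were DESeq2 1.42.0, RLE and upper-quartile scaling, no and stricter filters, a replicate block, 12 libraries in 1 fit, counts divided by 4, each library left out and, chosen after seeing the data, EIF3C and EIF3CL summed. Depth was 75093844 to 107344598 counts, so the spread between the 3 libraries limits the precision of most factors, and EIF4EBP3 rests on low counts.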

Additional observations from a re-analysis of the deposited data

Results flagged for a closer look

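The lycorine effect differed between K562 and the libraries labelled K562/IM+L, by the interaction test, for 26 factors in the higher and 21 in the lower direction. That was 38.2% and 30.9% of the factors tested, beside 29.9% and 31.7% of all genes. The share of all genes past 1 on the log2 scale was not counted for this test, so none stands beside the factors listed next. Among the called factors past 1 on the log2 scale, the difference (effect in K562/IM as labelled minus effect in K562) was negative for the 3 eIF4G genes. It was -2.08 for EIF4G3, -1.71 for EIF4G1 and -1.26 for EIF4G2. It was also negative for EIF2AK2 (-1.14), EIF2S1 (-1.10), EIF3A (-1.08), EIF4E (-1.05) and EIF1AX (-1.01). It was positive for the elongation factors EEF1B2 (1.71), EEF1G (1.59), EEF1A1 (1.49) and EEF1D (1.46). In eIF3 it was positive for EIF3F (1.63), EIF3K (1.11) and EIF3H (1.04), and among the remaining factors for EIF1B (1.13) and EIF4EBP3 (3.44). The labelled libraries stand apart in the summed level of erythroid genes, 11 of 11 of which also had a positive difference, and the part of that in these values was not tested.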

How the results depend on the processing

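Leaving out each library in turn gave these ranges of factors called, higher and lower: 13 to 32, 6 to 14 and 6 to 18 in K562+L against K562, 45 to 57, 5 to 7 and 40 to 50 in K562/IM against K562, 38 to 48, 22 to 28 and 15 to 22 in the labelled libraries against K562/IM, 36 to 44, 6 to 11 and 30 to 33 against K562, and 44 to 48, 23 to 27 and 20 to 21 for the difference of the lycorine effects. In the labelled libraries against K562, the 6 higher factors became 10 with DESeq2, 15 with upper-quartile scaling, 10 with at least 10 counts in every library and 13 with 12 libraries in 1 fit, and the cause was not tested. Deviations of libraries with the same replicate number correlated between -0.227 and 0.081. Libraries with different numbers were not correlated for reference, so these values cannot settle whether the numbers pair the libraries. With a replicate block the 21 factors called in K562+L became 14 and the 11 higher became 6, and the counts in the other comparisons were 51, 43, 34 and 45. For the factors picked by the naming rule, 2872 of 2984 alternative values kept their direction and side of the threshold, 90 lost the call, 22 gained one and none changed direction with a call. Further factors given in the text are not among these values. More of the lost calls were in K562+L against K562 than in any other of the 5 comparisons. The depth limits EIF4EBP3, which stayed at or below 1.47 CPM, and the near-identical copies limit EIF3C, EIF3CL, EIF5AL1 and EIF2S3B.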
